A study of Mus musculus with 15 samples.

Results

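Small nucleolar RNAs are short nuclear RNAs that guide chemical changes on other RNAs, chiefly ribosomal RNA. Those of the H/ACA class, named Snora in the mouse, guide the conversion of uridine to pseudouridine, and those of the C/D box class, named Snord, guide methylation of the ribose 2′ hydroxyl. In mammals most of them lie in introns of host genes, many of which encode ribosomal proteins or other parts of the translation machinery, and the mature RNA is trimmed out of the spliced intron and held by a set of core proteins.

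The members described here were all genes with 1 symbol on the array whose symbol starts with Snora or Snord, plus Gm12238, a small nucleolar RNA within the gene G3bp1 whose symbol gives no class. They numbered 52 of the 19937 single-symbol genes measured: 20 Snora, 31 Snord and Gm12238. Where a gene had more than 1 probe set, the one with the highest mean over the 15 arrays was taken, as happened for Snora21 and Snora3, and no gene was dropped for a low signal. The gene annotation listed 51 of the members as small nucleolar RNAs and Snord73b as a small nuclear RNA. The probe set of each gene was thus selected on its mean signal, and the family was chosen by the high values that some members had on iron day 7 against sham in these arrays, so the values below describe the members and are not independent evidence that the family as a whole moved.

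The arrays measured total RNA from left ventricular cardiomyocytes of male C57Bl/6NT mice from Taconic, 8 to 9 months old. Iron mice received 0.15 Gy to the whole body of 1 GeV per nucleon iron (56Fe) ions, with a linear energy transfer of about 151 keV per µm, and their cells were taken 1, 3, 7, 14 or 28 days later. There were 3 arrays for iron day 1, 3 for iron day 3, and 2 each for iron days 7, 14 and 28. Sham mice, of the same strain, sex and age, gave 2 arrays of day 1 and 1 of day 3. No sham array of day 7, 14 or 28 was analysed here, so at those days time after the start of the experiment and exposure to iron cannot be told apart. The cells came from collagenase digestion and selection for calcium tolerance, which by the labels left over 90% cardiomyocytes and possibly a few inflammatory or endothelial cells. The labels do not state whether each array is a different mouse, so the p-values reflect only how arrays of a group varied, part of which may be technical.

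Array medians lay between 4.96 and 5.13 on the log2 scale, and the lowest correlation between any pair of arrays over all probe sets was 0.96. Cardiomyocyte markers were bright throughout, with a mean of 8 markers of 12.17 to 12.3 in iron days 7 to 28 and 12.29 to 12.31 in sham. Markers of other cells moved with the groups: 7 of 8 fibroblast markers and 6 of 8 macrophage and monocyte markers were lower on iron day 3 than in sham, as were 4 of 6 endothelial markers, and 4 of 6 lymphocyte markers were higher on iron day 28. The mean of the 8 fibroblast markers was 6.06 to 6.27 on iron day 3 and 6.53 to 7.35 on iron days 7 to 28, against 7.49 to 7.6 in sham, and that of the 8 macrophage and monocyte markers was 5.8 to 6.13 and 6.36 to 7.98, against 6.87 to 7.21. The mean of the 6 endothelial markers was 6.66 to 7.0 and 7.1 to 8.0, against 7.86 to 8.18. The mean of the 6 lymphocyte markers measured was 4.42 to 4.6 on iron day 3 and 5.14 to 7.65 on iron days 7 to 28, against 4.54 to 6.76 in sham. On iron day 1 these means were 6.24 to 7.38 for fibroblast, 6.0 to 6.88 for macrophage and monocyte, 7.02 to 8.2 for endothelial and 4.22 to 4.46 for lymphocyte markers. The part of these markers in the values of the small nucleolar RNAs was not tested. In such bulk samples fewer cells of a type and less RNA per cell cannot be told apart.

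Some arrays stood apart from their group. The day 3 sham array had a mean of 6.76 for the lymphocyte markers and 8.83 for 3 lung epithelium markers, against 4.54 and 4.66, and 6.48 and 5.54, in the day 1 sham arrays. In iron day 1 replicate 1 the endothelial mean was 8.2, against 7.1 and 7.02 in replicates 2 and 3. For the small nucleolar RNAs themselves, the iron day 3 arrays were not alike. Replicate 1 had members near their sham level, while replicates 2 and 3 had many of them far above it, so every day 3 value below rests on arrays that differed from each other. Differences were taken from a linear model over all genes (limma, 6 group means, adjusted by the Benjamini-Hochberg method over all 19937 genes), and a gene was called when its adjusted p was under 0.05. All values are log2 signals, on which a difference of 1 is a 2-fold change.

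**Figure D1:**
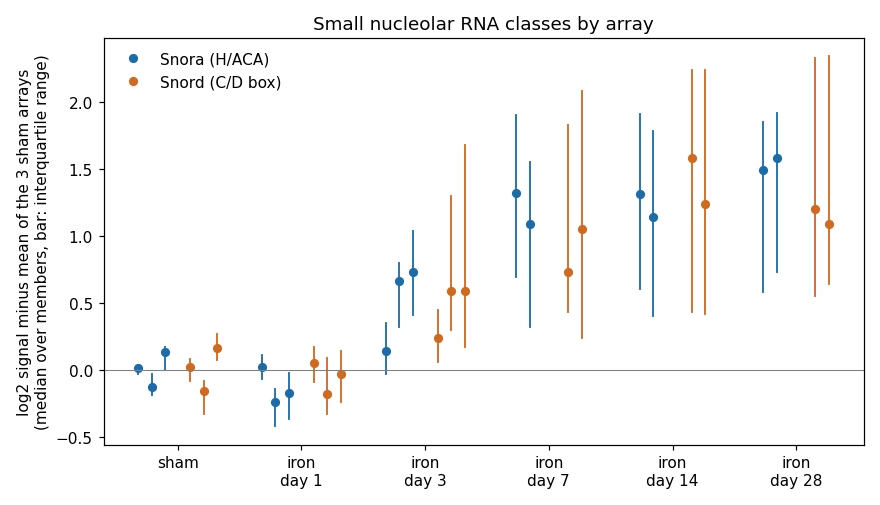
Median over the members of each class of the log2 signal minus the mean of the 3 sham arrays, with 1 point per array (blue Snora, 20 members, and orange Snord, 31 members) and a bar over the interquartile range of the members. The iron day 1 arrays sit at -0.24 to 0.05, day 3 replicate 1 at 0.14 and 0.24, and the 6 arrays of days 7 to 28 at 0.73 to 1.58.

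Both classes were close to sham on iron day 1 and above it from day 3 on. For Snora, the median over the 20 members of the signal above the sham mean was -0.24 to 0.02 in the 3 iron day 1 arrays, then 0.14, 0.66 and 0.73 in the 3 day 3 arrays, 1.32 and 1.09 on day 7, 1.31 and 1.14 on day 14, and 1.49 and 1.58 on day 28, against -0.13 to 0.13 in the 3 sham arrays. For Snord, the median over the 31 members was -0.18 to 0.05 on iron day 1, 0.24, 0.59 and 0.59 on day 3, 0.73 and 1.05 on day 7, 1.58 and 1.24 on day 14, and 1.2 and 1.09 on day 28, against -0.16 to 0.16 in sham. All 6 arrays of days 7 to 28 thus lay above every sham and every iron day 1 array in both classes, while the median signal of all genes ran only from 5.43 to 5.62 in those 6 arrays, against 5.49 in each of the 3 sham arrays.

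No member was called on iron day 1. The median difference from sham was -0.14 for Snora and -0.04 for Snord, against 0.05 over all genes, and the limma fit called 0.0% of all genes higher and 0.0% lower. At an unadjusted p under 0.05, 2 Snora members and 0 Snord members were lower and 0 of either class higher. The same threshold gave 1066 lower and 1001 higher of all 19937 genes. The 3 iron day 1 arrays lay above the 3 sham arrays for 0 Snora members, for 1 Snord member, which was Snord85, and for Gm12238, against 9.45% of all genes. Without iron day 1 replicate 1, 298 of all genes were called lower on day 1 and 14 higher, but still 0 of the 52 members (6 lower and 0 higher at an unadjusted p under 0.05).

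On iron day 3, 7 of 20 Snora and 9 of 31 Snord members were called higher, against 2.38% of all genes, and 0 were called lower, against 3.11%. At an unadjusted p under 0.05, 13 Snora and 18 Snord members were higher and 1 Snord member lower, against 3415 higher and 1772 lower of all 19937 genes. The median difference was 0.47 for Snora and 0.56 for Snord, against 0.1 over all genes. The 3 day 3 arrays gave different answers: members more than 1 above their sham mean numbered 0 Snora and 0 Snord in replicate 1, 3 and 11 in replicate 2, and 6 and 13 in replicate 3. Replicate 1 lay above all 3 sham arrays for 10 Snora and 17 Snord members, against 45.5% of all genes, and replicates 2 and 3 both did for 17 Snora and 23 Snord members, against 29.4%. With replicate 1 left out, 15 Snord members were called and 10 Snora members, against 0.532% of all genes called higher. Leaving out replicate 2 left 1 Snora and 1 Snord call, against 0.226%, and leaving out replicate 3 left 1 and 3, against 0.677%. The sham arrays mattered as well. Without the first day 1 sham array 1 Snora and 3 Snord members were called, against 0.346% of all genes. Without the second the calls were 3 and 5, against 2.38%, and without the day 3 sham array 3 and 4, against 0.431%. Leaving out either iron day 28 array, which enters through the shared estimate of the spread, also lowered the Snora calls and the share of all genes. Such a fit leaves 1 day 28 array, so its counts are not given.

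The late days carried more calls in both classes. On day 7, 14 of 20 Snora and 16 of 31 Snord members were called higher, against 1.35% of all genes, with median differences of 1.27 and 0.82, against 0.04 over all genes. Day 14 gave 12 and 19 calls, against 0.391% of all genes, with medians of 1.26 and 1.43, and day 28 gave 14 and 21 calls, against 1.05%, with medians of 1.57 and 1.13. The medians over all genes were 0.03 and 0.06. None of the 52 members was called lower on days 7, 14 or 28, against 0.878%, 0.12% and 0.296% of all genes. At an unadjusted p under 0.05 the limma fit had 0, 0 and 1 member lower, against 1630, 1208 and 955 of all 19937 genes.

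These counts depended on single arrays. Without the second day 1 sham array the Snord calls on day 7 were 10, against 0.482% of all genes. Leaving out an array of day 7, 14 or 28 leaves 1 array in that group, so counts from such fits are not given. In some of them the calls fell in both classes, and so did the share of all genes called higher. Over all alternatives, a filter on signal among them, the Snora median ran from 1.09 to 1.37 on day 7, 1.14 to 1.35 on day 14 and 1.45 to 1.61 on day 28. The Snord median ran from 0.718 to 1.77, 1.24 to 2.26 and 1.01 to 2.18 on those days. The direction of the class medians on days 3 to 28 stayed positive in each of these fits.

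All 6 arrays of days 7, 14 and 28 lay above all 3 sham arrays for 14 of 20 Snora members, 23 of 31 Snord members and Gm12238, against 4.28% of all genes. Counting the 5 iron days together as the mean of their group means, 13 Snora and 17 Snord members were called higher than sham, against 0.507% of all genes, and none lower, against 0.226%.

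Late iron days were also set against early ones, without the sham arrays. The day 7 arrays by which the family was chosen enter these comparisons, so they are not independent evidence. The mean of days 7, 14 and 28 exceeded the mean of days 1 and 3 for 16 Snora and 23 Snord members (limma adjusted p under 0.05), against 6.56% of all genes, with median differences of 1.11 and 0.8, and no member was called the other way, against 5.13%. Day 7 set against day 1 alone gave 15 and 18 calls, against 4.38%, with medians of 1.43 and 1.11, and again no member lower, against 4.01%. All 6 late arrays lay above all 6 arrays of days 1 and 3 for 12 Snora and 12 Snord members, against 1.38% of all genes. Day 3 replicates 2 and 3 are among those early arrays. Markers of other cells were higher in the same comparisons. In late against early arrays 6 of 6 lymphocyte, 6 of 8 macrophage and monocyte, 5 of 8 fibroblast and 2 of 6 endothelial markers were called higher (medians 1.98, 0.88, 0.51 and 0.52), and 0 of 8 cardiomyocyte markers. The cardiomyocyte marker Ryr2 was called lower, at -0.2 in late against early arrays and -0.44 in day 7 against day 1. In day 7 against day 1, 8 of 8 macrophage and monocyte markers were called higher (median 1.39), as were 2 lymphocyte, 1 fibroblast and 0 endothelial markers. Their part in these differences was not tested.

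**Figure D2:**
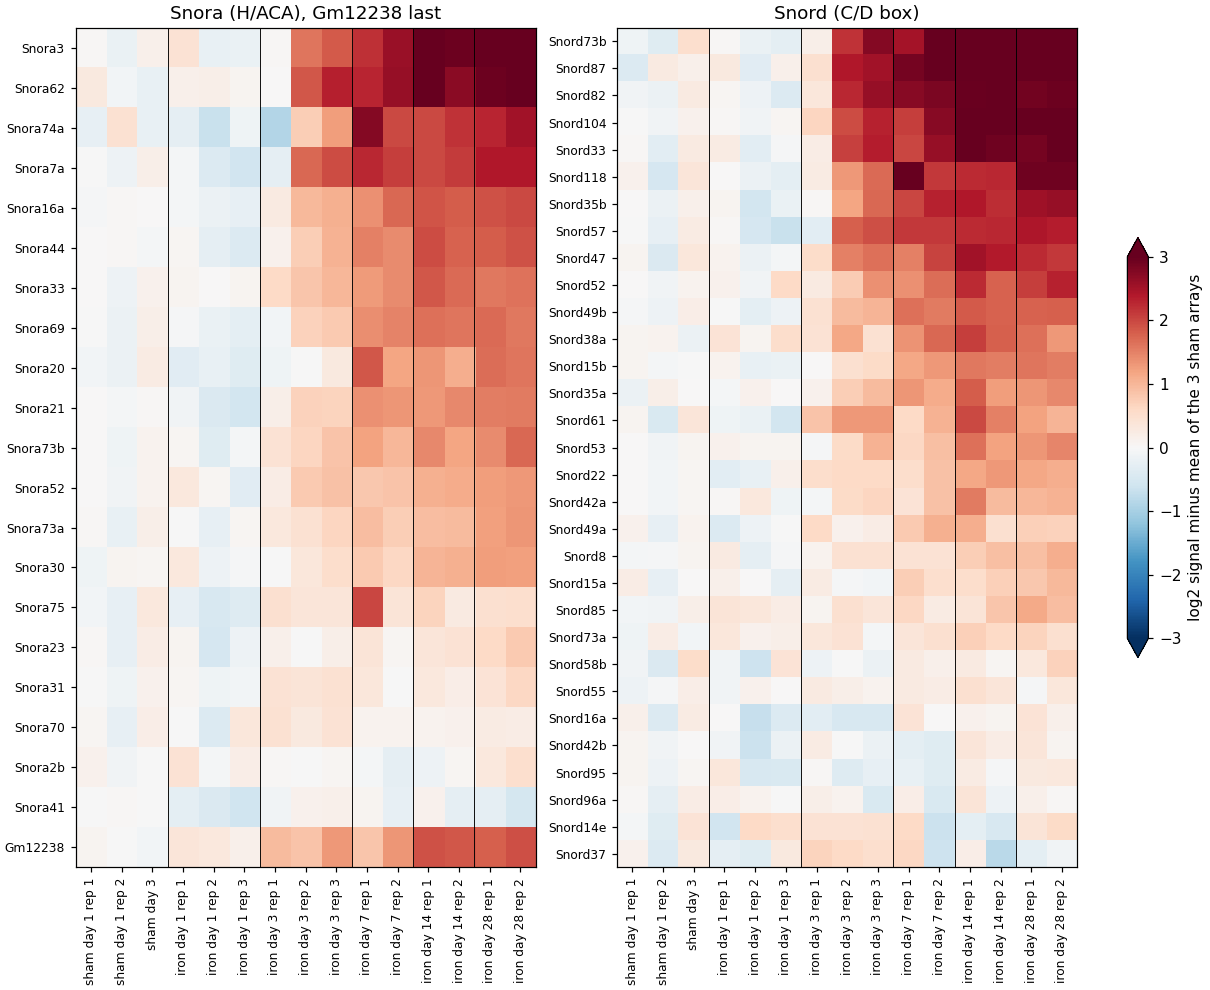
Log2 signal of each member minus its mean in the 3 sham arrays, 1 column per array (sham, then iron days 1, 3, 7, 14 and 28) and 1 row per member, sorted within each class by the mean over days 7 to 28, with colours ending at -3 and 3. Snora3, Snora62, Snord73b and Snord87 lead their panels, iron day 3 replicate 1 looks like the sham columns, and the lowest rows, such as Snora41 and Snord37, stay near 0 or below.

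Among the H/ACA members, Snora3 and Snora62 showed the largest late differences. Snora3, which lies in an intron of the ribosomal protein gene Rpl27a, had 9.57 and 9.98 on day 7, 10.43 and 10.32 on day 14 and 10.47 and 10.75 on day 28, against 7.43, 7.18 and 7.54 in sham. Its early iron arrays gave 7.82, 7.17 and 7.18 on day 1 and 7.41, 8.98 and 9.22 on day 3, so that only 2 of these 6 stood clear of sham by more than 1. The difference from sham on day 28 was 3.23 (SE 0.38, adjusted p = 0.000767), or 9.37-fold, and on day 3 it was 1.15 (SE 0.34) and was not called (adjusted p = 0.0649). A second Snora3 probe set, not used for the gene, moved alike, with a mean of 9.43 in the late arrays and 5.98 in sham.

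Snora62, in an intron of Rpsa, was a dimmer gene with a change of like size. It had 5.73 and 6.05 on day 7, 6.48 and 6.16 on day 14 and 6.38 and 6.5 on day 28, against 3.75, 3.36 and 3.23 in sham. All 6 late arrays were far above the sham arrays, and the day 28 difference was 2.99 (SE 0.45, adjusted p = 0.00421). On iron day 3 the values were 3.45, 5.32 and 5.78, and the 3 arrays of day 1, at 3.54 to 3.63, overlapped sham.

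Snora7a and Snora74a followed with smaller folds. Snora7a, in an intron of Rpl32, stood at 10.37 and 10.18 on day 7, 10.08 and 10.2 on day 14 and 10.51 and 10.5 on day 28, against 8.08, 7.95 and 8.28 in sham. Snora74a, in the non-coding host gene Snhg4, had 10.06 and 9.29 on day 7, 9.27 and 9.47 on day 14 and 9.58 and 9.81 on day 28, against 7.06, 7.76 and 7.08 in sham. Both were called on day 7 (differences 2.17 and 2.37, SE 0.44 and 0.45, adjusted p = 0.0268 and 0.0205) and on day 28, and neither on day 14, where the differences of 2.04 and 2.07 had an adjusted p of 0.058 each, although all late arrays of both members lay above their sham arrays.

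The brightest member was Snora52, in an intron of Rplp2, with 10.45, 10.32 and 10.53 in sham. It moved less than the members above: 11.24 and 11.3 on day 7, 11.49 and 11.54 on day 14 and 11.68 and 11.74 on day 28, the last a difference of 1.27 (SE 0.18, adjusted p = 0.00294) from sham. Snora21, in an intron of Rpl23, rose by 1.35 on day 7 and 1.56 on day 28 (SE 0.15 each, adjusted p = 0.000821 and 9.54e-05). Snora33, in an intron of Rps12, had one of the smallest standard errors, with differences of 0.8 on day 3, 1.35 on day 7, 1.78 on day 14 and 1.61 on day 28 (adjusted p = 0.00713, 0.000209, 2.89e-05 and 3.75e-05). It was also the H/ACA member with the lowest adjusted p on day 3, when its 3 arrays, at 5.26, 5.5 and 5.67, all lay above the sham arrays at 4.68, 4.53 and 4.81.

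Snora16a and Snora44 lie in introns of the same non-coding host gene, Snhg12, and had nearly the same course. Snora16a differed from sham by 0.77 on day 3, 1.55 on day 7, 1.86 on day 14 and 1.95 on day 28, all of them called, and Snora44 by 0.63, 1.47, 1.86 and 1.86, called on days 7, 14 and 28. Snora73b and Snora73a, the mouse forms of U17, an H/ACA RNA known in other species for the cleavage of the ribosomal RNA precursor rather than for guiding pseudouridine, sit in another non-coding host gene, Snhg3. Snora73b differed from sham by 0.64 on day 3, 1.11 on day 7, 1.31 on day 14 and 1.57 on day 28 (SE 0.14 to 0.16, adjusted p = 0.0219, 0.00398, 0.00084 and 0.000137).

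Some well measured H/ACA members moved little. Snora23, in an intron of the nuclear import gene Ipo7, had 8.86 and 8.55 on day 7 and 9.09 and 9.26 on day 28, against 8.51, 8.24 and 8.7 in sham, and its groups overlapped on day 7. Its differences were 0.23 on day 7 (SE 0.16, adjusted p = 0.473) and 0.69 on day 28 (SE 0.16, adjusted p = 0.0582). Snora31, in an intron of Tpt1, differed from sham by 0.42 on day 3, which was called (adjusted p = 0.0416), by 0.18 on day 7 and by 0.51 on day 28 (adjusted p = 0.454 and 0.0587). Snora30, in an intron of Srcap, was the third member nearest to 0 on day 7 among the H/ACA members above the median signal of all genes, and was still called, with differences of 0.71 on day 7 and 1.24 on day 28 (SE 0.16, adjusted p = 0.037 and 0.00109).

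Among the C/D box members, 6 had day 28 differences of 2.92 to 3.2, namely Snord73b, Snord87, Snord104, Snord33, Snord82 and Snord118. Snord73b, in an intron of Rps3a1, had 6.94 and 7.59 on day 7, 8.36 and 7.76 on day 14 and 7.53 and 7.75 on day 28, against 4.3, 4.07 and 4.94 in sham. Even the lowest late array was far above the highest sham array. Its difference was largest on day 14, at 3.62 (SE 0.52, adjusted p = 0.00407), or 12.3-fold. On day 3 its arrays read 4.62, 6.61 and 7.18, the first within the sham range and the others well above it.

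Snord87, in an intron of the non-coding host gene Snhg6, ran from a low baseline. It had 6.23 and 6.34 on day 7, 7.18 and 6.69 on day 14 and 6.36 and 6.64 on day 28, against 2.94, 3.62 and 3.51 in sham. The difference was 2.92 on day 7, 3.58 on day 14 and 3.14 on day 28 (SE 0.45, adjusted p = 0.00779, 0.00133 and 0.00294). On day 3 replicates 2 and 3 read 5.75 and 5.88 and replicate 1 read 3.83, just above the highest sham array.

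Snord104, within the non-coding gene Gm36220, was bright and had the lowest adjusted p of these 6 members on days 14 and 28. It stood at 8.89 and 9.55 on day 7, 10.02 and 9.81 on day 14 and 9.84 and 10.0 on day 28, against 6.82, 6.71 and 6.95 in sham. The differences were 2.39, 3.09 and 3.09 (SE 0.34, adjusted p = 0.00398, 0.00039 and 0.000333). It is also 1 of the members for which all 3 day 3 arrays, at 7.47, 8.78 and 9.13, lay above all sham arrays.

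Snord33 lies in an intron of Rpl13a, whose C/D box RNAs are known from rodent cells as mediators of metabolic and oxidative stress responses. It had 7.45 and 8.05 on day 7, 8.52 and 8.35 on day 14 and 8.31 and 8.6 on day 28, against 5.48, 5.13 and 5.7 in sham. Its day 28 difference was 3.02 (SE 0.44, adjusted p = 0.0034). Snord82, also known as U20, lies in an intron of the nucleolin gene Ncl and had 9.39 and 9.49 on day 7, 9.61 and 9.73 on day 14 and 9.55 and 9.6 on day 28, against 6.55, 6.49 and 6.93 in sham. The 6 late arrays were close to each other and far above sham, and the differences were 2.79 on day 7, 3.02 on day 14 and 2.92 on day 28 (SE 0.44, adjusted p = 0.00858, 0.00438 and 0.00421).

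Snord118 is U8, which in vertebrates is needed for maturation of the large ribosomal subunit RNAs, and it was the single member with no annotated gene around it. It had 6.82 and 5.79 on day 7, 5.91 and 5.93 on day 14 and 6.59 and 6.58 on day 28, against 3.8, 3.16 and 4.03 in sham. The 2 day 7 arrays differed widely (SD 0.73), and all 6 late arrays were above sham. Its differences of 2.64 on day 7 and 2.92 on day 28 were called (SE 0.37, adjusted p = 0.00369 and 0.00109).

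Snord57, in an intron of Nop56, which encodes a core protein of the C/D box particle, was the brightest C/D box member. It had 11.19 on both day 7 arrays, 11.3 and 11.33 on day 14 and 11.48 and 11.42 on day 28, against 9.05, 8.82 and 9.31 in sham. Its differences on days 7, 14 and 28 were 2.13, 2.26 and 2.39 (SE 0.46, adjusted p = 0.034, 0.0494 and 0.0213). On day 3 it read 8.74, 10.85 and 10.99, and that wide spread left the difference of 1.14 uncalled (adjusted p = 0.113). Snord49b, within 2410006H16Rik, had the lowest adjusted p of the C/D box members on day 28, with a difference of 1.78 (SE 0.15, adjusted p = 5.31e-05).

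The C/D box class also held the brightest member that was called on no day. Snord14e, in an intron of the heat shock gene Hspa8 and a form of U14, which is known in yeast for processing of the small subunit ribosomal RNA, had 10.36 and 9.11 on day 7, 9.46 and 9.27 on day 14 and 10.15 and 10.34 on day 28, against 9.7, 9.4 and 10.17 in sham. The groups overlapped and the day 7 difference was -0.02 (SE 0.35, adjusted p = 0.981). Snord55 differed by 0.25 on day 7 (SE 0.13, adjusted p = 0.317) and 0.15 on day 28. Snord8, within the non-coding gene Gm26590, differed by 0.44 on day 7, which was not called (adjusted p = 0.134), and by 0.81 and 0.98 on days 14 and 28, which were (adjusted p = 0.0283 and 0.0052).

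Gm12238 was called on every day from day 3 on and stood just above sham already on day 1. It had 5.38, 5.32 and 5.15 on day 1, all higher than the sham arrays at 5.1, 4.99 and 4.93. Its other arrays read 5.96, 5.86 and 6.3 on day 3, 5.83 and 6.32 on day 7, 6.91 and 6.86 on day 14 and 6.79 and 6.93 on day 28. The day 1 difference of 0.28 was not called (SE 0.14, adjusted p = 0.503), and the differences of 1.04, 1.07, 1.88 and 1.85 on days 3, 7, 14 and 28 were (adjusted p = 0.00583, 0.00414, 6.21e-05 and 3.75e-05). Its value in day 3 replicate 1 was not the lowest of the 3 day 3 arrays.

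Neither class stood above the other on all late days. The C/D box median minus the H/ACA median was -0.6 and -0.05 in the 2 day 7 arrays, 0.27 and 0.1 in the day 14 arrays and -0.29 and -0.48 in the day 28 arrays, against 0.01, -0.03 and 0.03 in the sham arrays. No test of the classes against each other was made, because members share arrays and were taken up with their values known.

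The C/D box class had the wider interquartile range. On day 28 this range was 0.54 to 2.29, and that of the H/ACA class 0.65 to 1.88, although the members reached about as far in both, from -0.2 to 3.2 and from -0.4 to 3.23. On day 3 the interquartile range of the C/D box members was 0.28 to 1.11 and that of the H/ACA members 0.35 to 0.68. The members not named above kept within the ranges of their class, and those below 0 on day 28 were Snora41 and Snord37, at -0.4 and -0.2, neither of them called (adjusted p = 0.267 and 0.826). Both were picked out after their values were seen.

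Host genes were next set beside their small nucleolar RNAs. In the annotation 51 of 52 members lay within the span of another gene, in 41 different hosts, of which 16 encode ribosomal proteins of the cytosol and hold 21 members (8 Snora and 13 Snord) and 10 are long non-coding and hold 13. The annotation used gave no strand for the members, so a host is the shortest gene whose span holds the member. Only spans were compared, so it was not checked that members lie in introns of their hosts, as written above. As 1-symbol genes, 24 hosts of 28 members were on the array.

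Against sham the hosts differed less than their members. Over these 28 members the median difference from sham was 0.43 on day 3, 0.8 on day 7, 1.14 on day 14 and 1.18 on day 28, and that of the hosts, 1 value per member, was -0.12, 0.11, 0.03 and 0.12. The member's difference was above its host's in 26, 23, 24 and 24 of 28 cases on those days. Members called higher numbered 9, 13, 16 and 17, and members with a host called higher 2, 2, 1 and 2, against 2.38%, 1.35%, 0.391% and 1.05% of all genes. When late iron days were set against early ones, 20 of the 28 members were called higher and 9 had a host called higher, 7 of them both, against 6.56% of all genes. The median difference was 0.77 for the members and 0.12 for the hosts. Of the 24 hosts, 7 were called higher in that comparison: Gas5 by 1.57, Rps12 by 0.73, Rpl10 by 0.43, Rpl27a by 0.32, Rpsa by 0.3, Rps3 by 0.28 and Rps3a1 by 0.27. Snora3, Snora62 and Snord73b, which lie in Rpl27a, Rpsa and Rps3a1, differed there by 2.29, 1.99 and 2.44. The host Rbmx was called lower, at -0.35, against 5.13% of all genes.

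Array by array, some hosts of the named members overlapped their sham range and others lay above it. Rpl27a, the host of Snora3, read 9.4 and 9.4 on day 7, 9.41 and 9.09 on day 14 and 9.29 and 9.23 on day 28, against 9.24, 9.2 and 9.19 in sham. Ncl, the host of Snord82, read 8.81 and 8.74, 8.94 and 8.76, and 9.01 and 9.0 on those days, against 8.74, 8.86 and 8.88. The late arrays of Nop56 and G3bp1, the hosts of Snord57 and Gm12238, also overlapped sham. In Rps3a1, the host of Snord73b, every late array lay above every sham array, at 7.26 to 7.71 against 7.05 to 7.2. The same held for Rpsa, the host of Snora62, at 8.79 to 8.92 against 8.45 to 8.77. Rps12, the host of Snora33, was likewise higher, at 7.62 to 8.19 against 7.43 to 7.5. On day 28 the hosts of Snora3, Snora62, Snord73b, Snord82, Snord57 and Gm12238 differed from sham by 0.05, 0.22, 0.19, 0.18, -0.07 and -0.03, none of them called, where the members themselves differed by 1.85 to 3.23. Rplp2, the host of Snora52, was dim, at 2.58 to 4.57 over the 15 arrays, so its difference says little about the host transcript.

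The host Gas5 differed about as much as its member. Gas5, a long non-coding gene whose transcript carries many C/D box RNAs, read 9.0 and 9.28 on day 7, 9.66 and 9.52 on day 14 and 9.69 and 9.78 on day 28, against 7.41, 7.08 and 7.77 in sham. Its member Snord47 read 6.77 and 7.28, 7.76 and 7.62, and 7.49 and 7.37, against 5.33, 4.82 and 5.6. The 2 differences on day 28 were 2.31 for Gas5 and 2.18 for Snord47, both called. Whether the Gas5 probe set also binds the small RNAs in its introns was not tested. Snord47 and Gas5 were picked out after their values were seen.

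**Figure D3:**
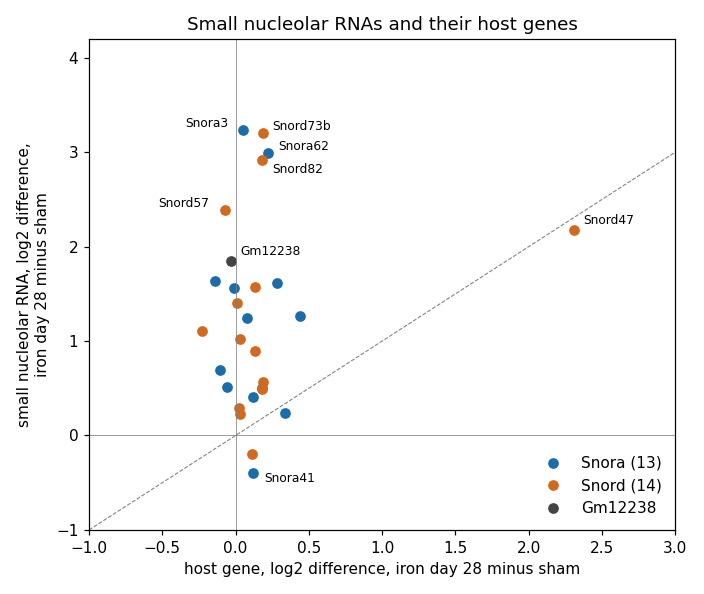
Log2 difference, iron day 28 minus sham, of each small nucleolar RNA (vertical) against that of its host gene (horizontal) for the 28 members whose host is on the array as 1 gene, with a dashed line where both are equal. All hosts but Gas5, at 2.31 with its member Snord47 at 2.18, lie between -0.23 and 0.44, while members run from -0.4 to 3.23.

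Members of the same host did not always move together. All 10 hosts with more than 1 member held a pair. The signal of one member minus that of the other was taken, with the larger late minus sham difference first. In 8 of the pairs the range of this value over the 6 late arrays lay above its range over the 3 sham arrays. The order was set from the same values, so the count only describes these pairs. The share among pairs of other genes was not computed. In Rps3a1 the mean of the late arrays exceeded the sham mean by 3.22 for Snord73b and by 0.55 for Snord73a, and in Ncl by 2.91 for Snord82 and 0.73 for the H/ACA member Snora75. The Rpl13a pair differed by less, with 2.78 for Snord33 and 1.38 for Snord35a.

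Other pairs were closer. The values were 0.97 for Snord42a and 0.06 for Snord42b in Rpl23a, 1.73 for Snord49b and 0.8 for Snord49a in 2410006H16Rik, 1.46 for Snord15b and 0.7 for Snord15a in Rps3, and 1.33 for Snora73b and 1.01 for Snora73a in Snhg3. The pairs whose ranges overlapped were Snora16a and Snora44 in Snhg12, at 1.79 and 1.73, and Snord95 and Snord96a in Rack1, at 0.04 and 0.03. Members of a pair lie within the span of 1 host gene but have probe sets of their own. A member of a pair can be far dimmer: Snord73a averaged 2.89 over the 15 arrays, at percentile 6.4 of all genes. One array narrowed the Ncl pair, since Snora75 read 7.3 in day 7 replicate 1 and 5.57 to 5.97 in the other late arrays, against 5.21, 5.05 and 5.62 in sham. Snord82 minus Snora75 was 2.09 in that array, the lowest of the late range of 2.09 to 4.16, against 1.32 to 1.44 in sham.

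Transcripts of ribosomal protein genes and of many non-coding host genes are known to begin with a C followed by a run of pyrimidines, a feature tied to control of translation. The first bases of hosts were therefore read from the RefSeq promoter table (build GRCm38.p6), and 50 bases are shown, 25 before the annotated first base and 25 from it on, on the strand of the gene. Capitals mark an unbroken run of at least 5 letters that are C or T, the longest one that touches the 11 bases from 5 before to 5 after the first base. They are shown for hosts of 3 kinds: those of the leading members Snora3 and Snord33 and of the Snhg12 pair, the host of a pair with differences near 0 (Rack1), and Ncl and Rps3a1, whose pairs differed most between their members. No such run was found in Ncl or Rps3a1, nor in Rps3, which holds the Snord15 pair, or in Rpsa, the host of the leading member Snora62, both not shown.
Rpl27a, chr7:109519170-109519219, plus strand: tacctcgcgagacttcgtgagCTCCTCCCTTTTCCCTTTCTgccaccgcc
Rpl13a, chr7:45128721-45128770, minus strand: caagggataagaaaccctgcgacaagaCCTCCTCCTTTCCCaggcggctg
Snhg12, chr4:132308653-132308702, plus strand: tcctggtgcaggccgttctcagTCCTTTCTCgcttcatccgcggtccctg
Rack1, chr11:48800335-48800384, plus strand: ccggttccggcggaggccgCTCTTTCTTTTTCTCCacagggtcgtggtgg
Ncl, chr1:86359431-86359480, minus strand: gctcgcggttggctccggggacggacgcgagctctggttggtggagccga
Rps3a1, chr3:86142644-86142693, minus strand: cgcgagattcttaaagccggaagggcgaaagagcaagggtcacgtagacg

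The run was 20 bases long in Rpl27a and 16 in Rack1, so that both a host of a member that rose and one of a pair that was not called held one. Of the 31 hosts with an entry in the table, 18 had such a run (58.1%), against 9916 of 27025 genes with an entry (36.7%). Only the strand of the gene was searched, the annotated first base may not be the one used in these cells, and a match is a description of letters and not of a site in use. No promoter of Snord118 and no mature sequence of a small nucleolar RNA was used here.

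The genes that act on small nucleolar RNAs were read from the same fit. Of 4 core proteins of the C/D box particle, 0 were called by limma on any day (0, 2, 0, 0 and 2 at an unadjusted p under 0.05 on days 1, 3, 7, 14 and 28). Of 4 core proteins of the H/ACA particle, Nop10 was called higher on day 3, by 0.42, and 0 were called on days 7, 14 and 28 (1 each at an unadjusted p under 0.05), when the medians of the 4 were 0.21, 0.17 and 0.16. Of 9 assembly factors 0 were called by limma on any day (1 at an unadjusted p under 0.05 on day 1 and 0 later). Of 19 measured genes for RNA decay and trimming 0 were called against sham (1, 1, 6, 2 and 2 at an unadjusted p under 0.05). The 6 on day 7 were Exosc9, Smg1, Smg5, Tent4b and Xrn1, which were lower, and Exosc5, which was higher. In day 7 against day 1, Exosc9 and Smg5 were called lower, at -0.41 and -0.33, against 4.01% of all genes. Of 10 genes of the nucleolus and RNA polymerase I, Npm1 fell by 0.42 on day 3 and Polr1a, the largest subunit of the polymerase, fell by 0.6 on day 7. Beside the unadjusted counts of these lists, all 19937 genes gave 1001, 3415, 2328, 1872 and 2097 higher on days 1, 3, 7, 14 and 28. They gave 1066, 1772, 1630, 1208 and 955 lower. The medians of these lists lay between -0.18 and 0.24 on every iron day, against class medians of 0.82 to 1.57 for the small nucleolar RNAs on days 7 to 28.

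Some other short structured RNAs were also higher on the late days. A list of 12 such genes (Rmrp, Rn7sk, Rnu12, Rnu3a, Rnu5g, Rnu6, Rnu7, Rny1, Rny3, Rpph1, Terc and Vaultrc5) had a mean signal of 5.91 to 6.13 on iron day 1, 6.19 to 6.82 on day 3 and 6.93 to 7.6 on days 7 to 28, against 5.99 to 6.2 in sham. The numbers called higher were 0, 3, 7, 6 and 7 of 12 on days 1, 3, 7, 14 and 28, against 0.0%, 2.38%, 1.35%, 0.391% and 1.05% of all genes, and 0 were called lower. Rn7sk, Rnu5g, Rnu6 and Rnu7 were called against sham on no day. Rny3, a Y RNA that binds the Ro protein, read 11.95 and 12.42 on day 7, 12.55 and 11.69 on day 14 and 11.96 and 11.83 on day 28, against 10.57, 10.15 and 10.66 in sham. It was called on day 7 and not on days 14 and 28 (limma adjusted p = 0.0275, 0.0574 and 0.0636). Rmrp, the RNA of the ribonuclease that trims the ribosomal RNA precursor and mitochondrial primers, was 10.38 to 10.99 in the late arrays, against 9.7 to 9.97. Rn7sk, which holds back transcription elongation, was near the top of the scale with overlapping groups, at 12.65 to 12.77 in the late arrays, against 12.64 to 12.69 in sham. Rnu3a is U3, itself a C/D box RNA, whose symbol does not start with Snord. Rny3, Rmrp and Rn7sk were picked out after their values were seen.

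The small Cajal body RNAs, which carry the same sequence boxes as small nucleolar RNAs and guide changes on spliceosomal RNAs, gave 3 measured genes. Scarna17 read 8.92 and 9.12 on day 7 and 9.99 and 10.09 on day 28, against 7.92, 8.15 and 8.1 in sham, Scarna13 read 8.87 and 8.57 and then 9.21 and 9.51, against 8.2, 8.06 and 8.46, and Scarna8 read 4.39 and 3.69 and then 4.85 and 4.99, against 4.2, 4.43 and 4.76. The numbers called higher were 1, 1, 2 and 2 of 3 on days 3, 7, 14 and 28, against 2.38%, 1.35%, 0.391% and 1.05% of all genes. Of 300 microRNA genes measured by probe sets for their precursors, 13 (4.33%) were called higher on day 3, 5 (1.67%) on day 7, 1 (0.333%) on day 14 and 1 on day 28, against those same shares of all genes, and 2 were called lower on day 7, against 0.878%. The medians of the microRNA genes were 0.23, 0.13, 0.14 and 0.11.

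**Figure D4:**
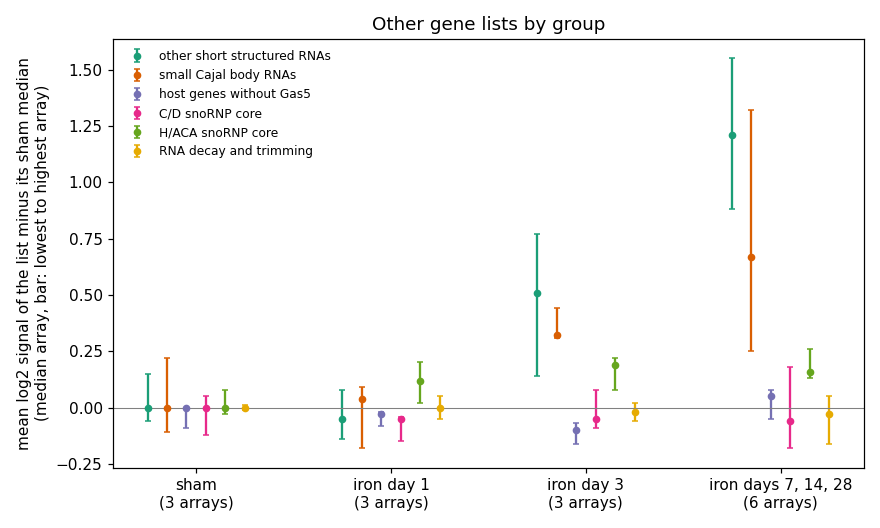
Mean log2 signal over the genes of each list minus the sham median of that mean, for sham, iron day 1, iron day 3 and iron days 7 to 28 together, with a point at the median array and a bar from the lowest to the highest array. The other short structured RNAs reach 6.93 to 7.6 in the late arrays, against 5.99 to 6.2 in sham, and the host genes without Gas5, the core proteins and the decay genes stay near 0.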

How the data were processed

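The deposited table holds 34760 probe sets on 15 arrays as log2 signals normalised by the authors, with values of 0.234 to 13.01. Per the submitters' processing notes MAS5 was used, with the version and its role not given in the sources used here. Per the labels' protocols biotinylated cRNA was made from TRIzol total RNA. Scanner values were not used here, so background and saturation per probe are unknown, and the number of arrays limits the precision.

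Probe sets with 1 symbol numbered 21640 and gave 19937 genes, 1 probe set each. limma 3.58.1 in R 4.3.3 fitted 6 group means to all 15 arrays with an intensity trend (9 residual degrees of freedom), with Benjamini-Hochberg adjustment over all genes. The fit was tested on simulated data. Hosts and names came from the RefSeq gene table (GRCm38.p6), which lacks the members' strand, so the planned strand rule for hosts could not be used. The members, lists, tests and alternatives were chosen with earlier results of these data known. Residuals of the 31 same-numbered pairs of arrays from different groups correlated at -0.279 to 0.352 (median 0.0365), and 6 were above 0.1. The 50 pairs with other numbers gave -0.352 to 0.287 (median -0.0216), and 11 were above 0.1. In the late iron groups the residual of each array mirrors that of the other, so the check cannot decide whether replicate numbers pair arrays. The third sham array has no number of its own.

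Members named were, per class, the 5 brightest, the 5 with the largest called difference in each direction on each day, and the 3 nearest 0 on day 7 among those above the median signal, then Gm12238 and the hosts of these. Others are said to be picked after their values were seen, or come as whole sets such as the same-host pairs, of which 1 is not reported here. Alternatives were 2 other scalings, a signal filter, no trend, array weights, other uses of probe sets, other sets of arrays, a replicate block, and leaving out each array. A planned split of the classes by mean signal is not given, since that mean includes the late arrays.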

Additional observations from a re-analysis of the deposited data

Results flagged for a closer look

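For 15 Snora and 18 Snord members the difference from sham was not the same on iron day 7 as on iron day 1. This was a test of day 7 against day 1 itself (limma, adjusted p under 0.05). Day 7 was the higher day for all of them, against 4.38% of all genes higher and 4.01% lower. For 16 Snora and 23 Snord members the same held for the mean of days 7, 14 and 28 against the mean of days 1 and 3. In that comparison 6.56% of all genes were called higher and 5.13% lower. Both comparisons include the day 7 arrays by which the family was chosen.

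A further 22 probe sets name a small nucleolar RNA together with another gene or another small nucleolar RNA, and were not members. In 11 of them all 6 late iron arrays lay above all 3 sham arrays, against 4.22% of all 34760 probe sets, and their median difference of late iron minus sham was 1.02, with a range of 0.07 to 4.33. The largest, 4.33, belonged to the probe set for Snord68 and Rpl13, at 7.38 in late iron arrays and 3.05 in sham, and the probe sets for Snord34 with Rpl13a and Snord32a with Rpl13a differed by 2.4 and 1.92. These 3 were picked out after their values were seen.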

How the results depend on the processing

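Of 250 recomputed counts of called Snora or Snord members (10 counts under 25 alternatives), 217 stayed within 1.5 times the reported count. Class medians of days 3 to 28 stayed positive throughout, the day 1 Snord median, reported as -0.04, ran from -0.17 to 0.03, and 243 of 250 recomputed medians moved by less than the spread between arrays. No named member that was called reversed its direction. Of 1264 recomputed values of named members, 1109 counted as unchanged. For a called member this meant the same direction and call. For a member not called it meant a move smaller than the SD of its sham arrays, whatever the direction. In 150 values a called member kept only its direction. The day 3 counts, reported as 7 Snora and 9 Snord, moved most. The share of all genes called higher, 2.38% as reported, is given beside each. Median centring left 3 Snora (1.03%) and array weights gave 11 and 14 (5.77%). Testing all probe sets gave 3 Snora (0.849% of probe sets) and fitting only the arrays compared left 5 Snord (2.37%). The day 1 sham arrays alone left 3 and 4 (0.431%). A fit with the replicate number as a block and without the day 3 sham array called 1 Snora and 2 Snord members on day 3 (0.206%). It changed no other count by more than 1.5 times, and whether the numbers pair the arrays is not known. The cause of these shifts was not tested. Keeping only genes above the median signal gave 10, 11 and 11 Snord calls on days 7, 14 and 28, by construction, since 13 Snord members remain. The shares of the genes kept were 1.95%, 0.592% and 1.41%. Leaving out 1 array at a time gave 1 to 10 Snora and 1 to 15 Snord calls on day 3, 5 to 14 and 4 to 17 on day 7, 6 to 14 and 5 to 19 on day 14, and 10 to 16 and 8 to 21 on day 28, and 0 on day 1 in each case. A group left with 1 array was assumed to vary like the others. The median of all genes was 0.1 above sham on day 3 as deposited and 0.03 after median centring. Dim members such as Snord38a, Snord58b and Snord73a lie near the lowest signals of the array.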
